A study of Mus musculus with 12 samples.

Results

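The genes of synaptic vesicle fusion and exocytosis were measured in the hypothalamus of mice that drank alcohol from adolescence into adulthood. All non-control array probes whose gene name was a numbered synaptotagmin, syntaxin, syntaxin-binding protein, VAMP, SNAP, synapsin, complexin, SV2 or Rab3 were taken, which gave 63 genes on 132 of the 41174 probes of the array. They were 7 VAMPs, 15 syntaxins, 5 SNAP genes, 5 syntaxin-binding proteins, 17 synaptotagmins, 4 complexins, 3 synapsins, 3 SV2 proteins and 4 Rab3 GTPases. Snap91, which encodes the clathrin assembly protein AP180 and is not a SNARE, entered by its name. Each gene was represented by the probe with the highest mean signal over the 12 arrays.

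The animals were male mice of the outbred ICR strain, 3 weeks old at the start, and all groups had the same adaptation to drinking tubes holding water. Alcohol mice then chose freely between water and a solution of 5% or 10% alcohol, whereas control mice had water in both tubes, and alcohol stayed available until the end, with no washout. The labels divided the alcohol arrays into low drinkers, early high drinkers and late high drinkers, and the mice offered 5% and 10% were not separated in them. Each of the 12 arrays carried an RNA pool: 9 water mice made 3 pools, and 19 alcohol mice made 9 pools of 1 to 3 mice, 3 pools for each kind of drinker. The authors listed 3 mice in each pool of less drinking mice and fewer in each pool of more drinking mice. A pool averages its mice, so the spread below is between pools that hold unlike numbers of mice.

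At a nerve terminal, a vesicle SNARE (a VAMP) pairs with a syntaxin and a SNAP protein of the plasma membrane, and the zippering of this complex draws the membranes together. Syntaxin-binding proteins and the complexins control how the complex assembles, and synaptotagmins couple fusion to calcium. Synapsins hold the reserve of vesicles, SV2 proteins are glycoproteins of the vesicle membrane, and Rab3 GTPases bring vesicles to the release site. In the hypothalamus the same machinery releases fast transmitters from synaptic vesicles and neuropeptides from dense-core vesicles, while several relatives listed here serve traffic between other membranes in most cell types.

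Levels are given as log2 of the processed signal minus the 75th percentile of the same array, so that 0 is the brightness of that percentile, and levels of different probes cannot be set against each other. Of the 63 genes, 59 had enough usable spots to be tested, 58 had values on all 12 arrays, and 56 were well above background on every array. Complexin Cplx4, syntaxins Stx11 and Stx19, and synaptotagmin Syt15 were too dim for a test. Between 67.0% and 79.3% of the 43379 non-control spots were well above background on an array. All 8 neuron markers and 9 of the 10 hypothalamus markers with a tested probe were well above background on all 12 arrays. The summed linear level of the neuron markers, each relative to the array's 75th percentile, was 110 to 117 in water mice, 113 to 116 in low drinkers, 112 to 119 in early high drinkers and 115 to 120 in late high drinkers.

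There were 3 slides with 4 arrays each. The 3 water arrays shared slide 1 with low array 1, low arrays 2 and 3 shared slide 2 with early arrays 1 and 2, and early array 3 shared slide 3 with the 3 late arrays. Water arrays therefore shared no slide with early or late arrays and shared one with only low array 1. Slide 1 was scanned on another day than slides 2 and 3, so the scan day separated the water arrays and low array 1 from all other arrays. The median share of a gene's variance that lay between slides was 0.309 for the 59 genes and 0.311 over all gene names with 12 values, and that between groups was 0.341 and 0.357. In dissected tissue, fewer cells of a type and less RNA per cell cannot be told apart.

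The sequences of the probes that the results turned on are given first, because for several genes probes at different positions gave different results. Each is the first 30 bases of a 60-base probe, with the mouse mm9 position the array files give for the whole probe. Whether a position is coding or untranslated was not given in the sources used here. Vamp2, the neuronal vesicle SNARE, was measured at chr11:68905527-68905586 (plus strand) by its probe of highest mean signal, and by overlapping probes at chr11:68903482-68904163 and chr11:68903492-68904173 (plus strand). The latter probes were each placed over 682 bases of the genome for 60 bases of probe, that is, with a gap. Capitals mark the 20 bases that the shown stretches of these overlapping probes have in common.

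Vamp2, highest mean signal: agtgtgagagagaaagcaagctatttcctt
Vamp2, first overlapping probe: tgatcatcttGGGAGTGATCTGCGCCATCA
Vamp2, second overlapping probe: GGGAGTGATCTGCGCCATCAtcctcatcat

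Syn2, which encodes synapsin II, was measured at chr6:115226390-115226449 by its probe of highest mean signal and at chr6:115224988-115225047 by another. Snap29, a SNARE of endosomal and autophagosomal fusion, was measured at chr16:17430644-17430703 and at chr16:17427161-17427220. Cplx2, which encodes complexin 2, was measured at chr13:54485200-54485259 and at chr13:54481163-54481222. Syt8 had its probe at chr7:149625767-149625826. All lay on the plus strand.

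Syn2, highest mean signal: acacttttgtcacagtgtagggtttctgtt
Syn2, other probe: cttgtgtttttagtgacgaaatacaaagaa
Snap29, highest mean signal: aaaggtggcatttgtaactttaggttagct
Snap29, other probe: tactgtgaatactgaggtttacccaaagaa
Cplx2, highest mean signal: tccccactttgtatgatgcaaatgctaaga
Cplx2, other probe: cagttaagtctcagttccaaaggggaaaac
Syt8: aagatccagcttatgttaaaccagagaaaa

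With all alcohol mice set against water mice, 1 of the 59 genes, the synaptotagmin gene Syt8, had an unadjusted limma p under 0.05. This is 1.69% of the genes, against 5.59% of all 31622 probes tested. After Benjamini-Hochberg adjustment over all probes, no gene of the group passed 0.05, nor did any probe of the array (0%), and the smallest adjusted p among the 59 genes was 0.813 (limma). The median difference of the 59 genes was 0.03 on the log2 scale, the same as over all probes (0.03).

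The core of the release machinery differed little between all alcohol and water arrays. The difference (alcohol minus water, log2) was 0.05 for the plasma membrane SNARE Snap25, with a 95% interval from -0.08 to 0.17. For Stx1a, a syntaxin of the nerve terminal, it was 0.05 (-0.12 to 0.21). For Vamp2 it was 0.07 (-0.07 to 0.20). All 3 intervals include 0. The signs of Snap25 (-0.0097) and Stx1a (-0.010) turned when arrays were scaled to their medians, and that of Snap25 (-0.034) also turned with quantile normalization.

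The proteins that govern the complex stayed within similar limits. Syt1, the calcium sensor of fast release, differed by 0.07 (-0.05 to 0.19). Cplx1 and Cplx2 differed by 0.15 (-0.03 to 0.32) and 0.06 (-0.07 to 0.19). Rab3a, the main neuronal Rab3, differed by 0.04 (-0.11 to 0.19), and its sign turned with median scaling (-0.015) and quantile normalization (-0.054). The vesicle proteins Syn1, Syn2, Sv2a and Sv2b differed by -0.08 (-0.24 to 0.09), -0.13 (-0.33 to 0.07), 0.14 (-0.03 to 0.32) and 0.09 (-0.07 to 0.24). None had an adjusted p below 0.81 (limma), and every one of these intervals includes 0.

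**Figure D1:**
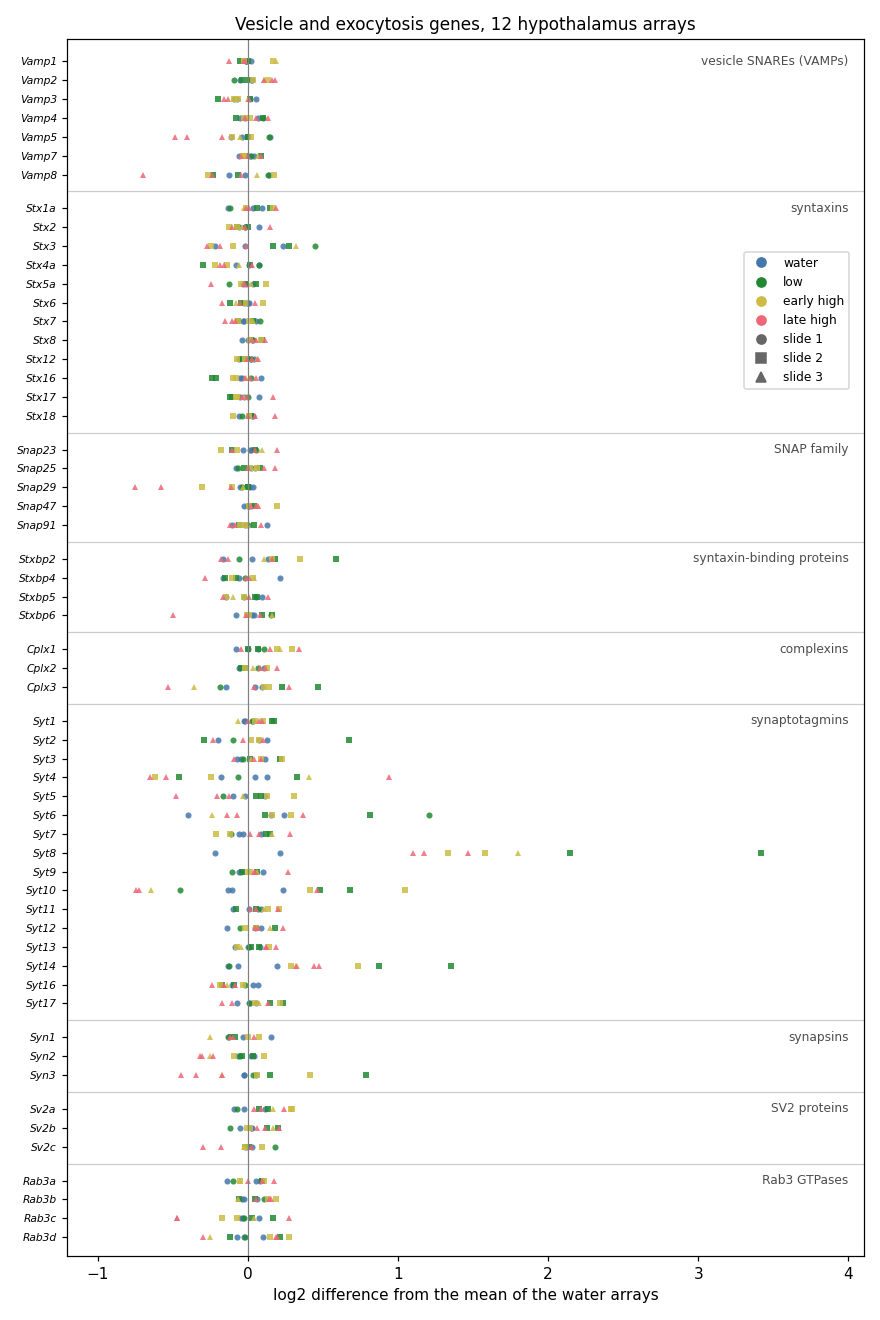
The log2 difference of each of 57 tested genes from the mean of its water arrays, 1 row per gene grouped by protein family, 1 point per array, with colour for the drinking group and shape for the slide. Most points lie close to 0, the points of Syt8 reach furthest to the right, and the synaptotagmins Syt4, Syt6, Syt10 and Syt14 are the most scattered of the others on the probes plotted.

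Of the 7 VAMPs, Vamp2 and Vamp5 had an unadjusted p under 0.05 in late high drinkers against water, in opposite directions, where 15.9% of all probes did. Vamp2 was at 4.84, 4.85 and 4.77 on the water arrays and at 4.73, 4.82 and 4.78 in low drinkers. It was at 4.96, 4.86 and 4.93 in early high drinkers and at 4.93, 4.98 and 5.00 in late high drinkers. Every array of a high drinker was thus above every water and low array. Against water, the late high drinkers were 0.15 higher (SE 0.05, unadjusted p 0.0172, adjusted p 0.214, limma), and against low drinkers the high drinkers were 0.16 higher (SE 0.05, adjusted p 0.190, limma). Within slide 1, low array 1 was 0.09 below the mean of the water arrays. Within slide 2 the early arrays were 0.11 above the low arrays, and within slide 3 the late arrays were 0.04 above early array 3. The overlapping probes of Vamp2 did not share this order. They were 0.18 and 0.13 lower in late high drinkers than in water mice, with unadjusted limma p of 0.0664 and 0.154, and with the mean of all probes taken, the late difference was -0.05.

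Vamp5, a VAMP first known from muscle, was lowest in the late high drinkers. It was at -1.27, -1.45 and -1.52 in water mice, -1.27, -1.41 and -1.41 in low drinkers and -1.52, -1.39 and -1.46 in early high drinkers. In late high drinkers it was at -1.90, -1.82 and -1.58, so that all 3 late arrays lay below all others. The late group was 0.35 lower than water (SE 0.10, unadjusted p 0.00460, adjusted p 0.146, limma) and 0.31 lower than the early group (SE 0.10, adjusted p 0.325, limma). Within slide 3 the late arrays were 0.30 below early array 3. Low array 1 was 0.14 above the water mean within slide 1, and the early arrays were 0.04 below the low arrays within slide 2. Vamp4, a VAMP of the trans-Golgi network, differed between alcohol and water by 0.03 on its probe of highest signal (-0.024 with median scaling). The other 2 Vamp4 probes were each 0.18 lower in alcohol mice (unadjusted limma p 0.0359 and 0.0607).

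Of the 13 syntaxins tested, none had an unadjusted p under 0.05 against water in any drinking group, where 9.08% of all probes did in low, 4.7% in early and 15.9% in late high drinkers. Stx1a lay at 0.18, 0.24 and 0.01 in water mice, 0.02, 0.21 and 0.29 in low, 0.31, 0.13 and 0.12 in early and 0.33, 0.13 and 0.15 in late high drinkers. The 4 groups overlapped throughout. Stx3, a syntaxin of apical membranes and ribbon synapses, was the only one with an unadjusted p under 0.05 in a comparison among drinkers. Stx3 was at -1.52, -1.69 and -1.80 in low drinkers, against -2.21, -2.06 and -1.64 in early and -2.15, -2.24 and -1.98 in late high drinkers. Of the high arrays, early array 3 fell inside the low range. The high group was 0.38 lower (SE 0.14, unadjusted p 0.0221, adjusted p 0.280, limma), and on other Stx3 probes it was 0.52 and 0.14 lower. The remaining Stx3 probes were 1.01 and 0.36 higher (unadjusted limma p 0.364 and 0.513), the last of them on the strand opposite to the other 4, and averaging all 5 gave 0.07.

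Among the SNAP genes, Snap25 held between 5.52 and 5.78 on all 12 arrays. Snap29 was at 1.35, 1.26 and 1.33 in water mice and at 1.28, 1.32 and 1.31 in low drinkers. It was at 1.01, 1.21 and 1.28 in early and at 0.74, 0.56 and 1.20 in late high drinkers. Late arrays 1 and 2 were the lowest of the 12, while late array 3 lay among the early arrays. The late group was 0.48 lower than water (SE 0.14, adjusted p 0.161, limma). Without late array 3 the difference was -0.66 with an adjusted p of 0.0158 (limma), so that this array decided whether the test was passed. The other Snap29 probes were at -0.05 and 0.09 for the same contrast, and within slide 3 the late arrays were 0.45 below early array 3 on the probe of highest signal.

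**Figure D2:**
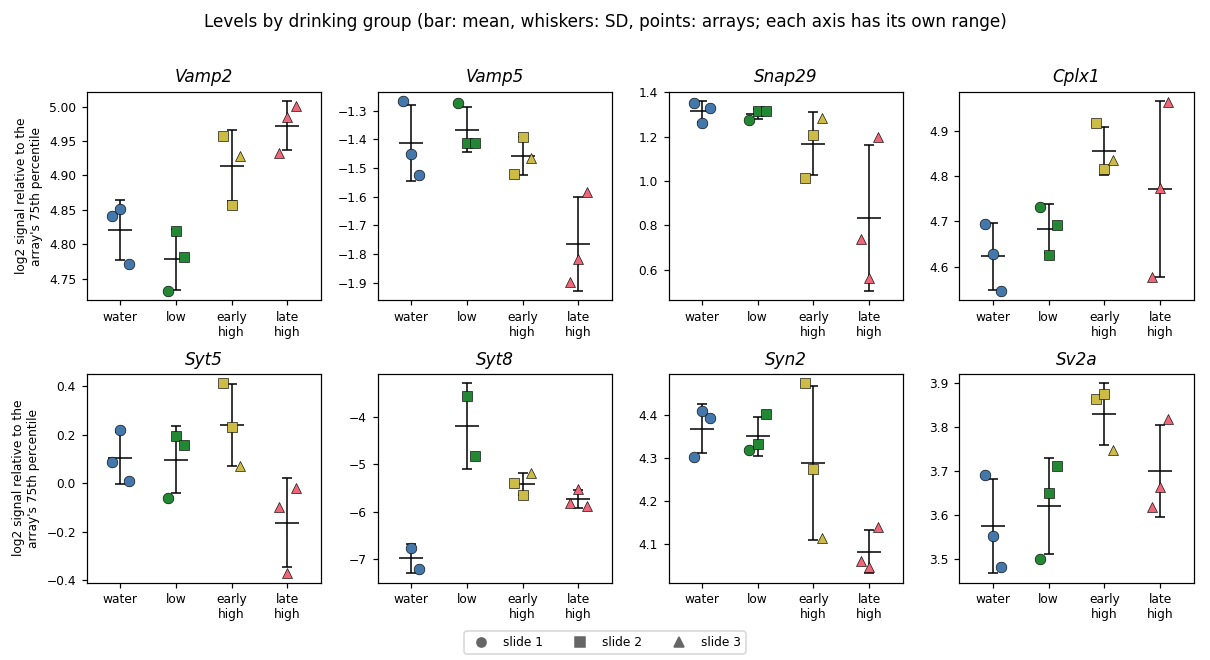
Log2 level relative to the array's 75th percentile of 8 genes in water mice and in low, early high and late high drinkers, 1 point per array with the group mean as a bar and the SD as whiskers; Syt8 has points for 2 of 3 water arrays and 2 of 3 low arrays, and each panel has its own axis. Vamp2 is high and Vamp5 low on all 3 late arrays, Snap29 is low on 2 of the 3, and Syt8 is highest on low array 2.

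Of the 5 syntaxin-binding proteins, none had an unadjusted p under 0.05 in any comparison, a count that means little for 5 genes where 4.7% to 15.9% of all probes did. Complexin 1, a small protein that clamps and then promotes SNARE zippering, was measured by Cplx1 at 4.69, 4.63 and 4.55 in water mice and at 4.73, 4.63 and 4.69 in low drinkers. It was at 4.92, 4.82 and 4.84 in early high drinkers and at 4.58, 4.77 and 4.96 in late high drinkers. The early arrays lay above every water and low array, and the late arrays spanned nearly the whole range. Against water, early high drinkers were 0.23 higher (SE 0.09, unadjusted p 0.0300, adjusted p 0.890, limma). Late high drinkers were on average 0.15 higher, and within slide 2 the early arrays were 0.21 above the low arrays. Cplx2 lay between 4.92 and 5.17 on all arrays on its probe of highest signal.

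A second Cplx2 probe gave another picture. It was at 2.63, 2.54 and 2.97 in water mice and 3.14, 2.76 and 2.20 in low drinkers. It was at 2.47, 2.30 and 2.27 in early and 1.46, 1.72 and 2.06 in late high drinkers. The 3 late arrays were the lowest of the 12 on this probe. Low array 1 at 3.14 was above the water arrays of its slide, and early array 3 at 2.27 was above the late arrays of its slide. The late and water arrays shared no slide, and a difference with slide as a block was not taken for this probe. The late group was 0.97 lower than water (SE 0.23, unadjusted p 0.00201, adjusted p 0.119, limma), whereas the probe of highest signal was 0.13 higher. The remaining Cplx2 probes were 0.21 and 0.23 lower. This probe was singled out after its values were seen.

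Among the 16 synaptotagmins tested, 13 were on average higher in alcohol than in water mice, where 59.5% of all probes were, with a median difference of 0.06. However, 12 were higher with quantile normalization and 10 with median scaling, and the share of all probes was not counted under those scalings. Syt1 was at 4.94, 4.93 and 4.99 in water mice, 4.99, 5.12 and 5.13 in low, 5.06, 5.01 and 4.89 in early and 4.96, 5.06 and 5.03 in late high drinkers. The lowest of the 12 was early array 3, and the groups overlapped. Syt16, a synaptotagmin without calcium binding, was below the water mean on all 9 alcohol arrays, by 0.12 on average (SE 0.06, adjusted p 0.813, limma). Water array 1 at 1.01 nevertheless lay within the alcohol range of 0.88 to 1.09. Another Syt16 probe was at 0.60, 0.45 and 0.40 in water mice and 0.56, 0.42 and 0.25 in low drinkers. It was at 0.52, 0.53 and 0.52 in early and 0.62, 0.68 and 0.57 in late high drinkers. On the remaining Syt16 probe, water arrays at -1.41 to -1.19 lay within the alcohol range of -1.54 to -1.16.

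Syt8 was dim on all arrays, and its result rests on few usable values. No water array had it well above background (0 of 3), while 1 of 3 low, 2 of 3 early and 2 of 3 late arrays did. Its spots were too dim for use on water array 1 and low array 1, so the fits used 10 arrays. It was at -6.76 and -7.20 in water mice, -3.56 and -4.84 in low drinkers, -5.40, -5.65 and -5.18 in early and -5.81, -5.52 and -5.88 in late high drinkers. Low array 2 stood apart from the rest. The value left out for low array 1 was -7.02, which lies within the water range, and that for water array 1 was -6.97.

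With water at the lowest signal counted as well above background, and all 3 arrays of a group used, Syt8 was at least 1.76-fold higher in low drinkers. This bound was 1.02-fold without low array 2 and 3.38-fold without low array 1. The bounds were 1.46-fold in early (adjusted p 0.890, limma) and 1.17-fold in late high drinkers (adjusted p 0.167, limma). The fitted differences, taken from water values that were not well above background, were 2.78 (SE 0.38) in low, 1.57 (SE 0.35) in early and 1.25 (SE 0.35) in late high drinkers on the log2 scale. With all 12 arrays used, the low difference was 1.84 and the test was not passed (adjusted p 0.315, limma).

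The low call of Syt8 was kept without scaling (adjusted p 0.0380), with median scaling (0.0177) and with outlier spots kept (0.0498, all limma). It was lost with normexp background correction, where the difference was 1.30 (adjusted p 0.0561, limma), and with quantile normalization, where it was 2.03 (adjusted p 0.176, limma). With slide as a random block the difference was 2.81 with an adjusted p of 0.0692 (limma). Slide 1, which was also the only slide of its scan day, held Syt8 values of water arrays alone. Slide or scan day and drinking therefore cannot be told apart for this gene.

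Low array 2 was also where the other dim genes of the group were highest. Of the 6 genes with a mean level below -3, namely Syt8, Syt14, Syt2, Syn3, Stxbp2 and Cplx3, all 6 had their highest value on low array 2, against 1 of the 53 brighter genes (1.89%). Over all probes the shares were 61.4% below -3 and 14.6% at or above it, so the same lean was present across the array. This level was chosen after the values were seen.

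In low drinkers, 3 genes had an unadjusted p under 0.05 against water (5.08%, against 9.08% of all probes), Syt8 with Syt6 and Syt14, and all 3 were higher, as were 8.33% of all probes at this p. Syt14, a synaptotagmin without calcium binding, was at -5.50, -5.43 and -5.17 in water mice and at -5.49, -4.01 and -4.49 in low drinkers. Low array 1, which shared a slide with the water arrays, lay within their range, and the other low arrays were the highest of all 12. Its signal cleared background on 2 of 3 water arrays and, in low drinkers, on low array 2 alone, so the differences that follow rest in part on values near background. The difference was 0.70 (SE 0.30, adjusted p 0.548, limma), but 1.12 without low array 1 (adjusted p 0.00652, limma) and 0.38 without low array 2. When slide or scan day entered as a fixed block, the sign turned (-0.12). On the other Syt14 probe, water mice were at -5.36, -5.73 and -5.23 and low drinkers at -5.90, -4.74 and -5.02. Low array 1 was there below every water array. Syt6 was at -3.45, -2.90 and -2.82 in water mice and at -1.85, -2.24 and -2.94 in low drinkers, of which low array 3 lay below water array 3. Its difference was 0.71 (SE 0.28, adjusted p 0.526, limma), and low array 1 was 1.20 above the mean of the water arrays of its slide. The summed level of 6 anterior pituitary markers was 18.0 to 41.7 in low drinkers, against 16.3 to 24.5 in water mice, 11.8 to 15.7 in early and 13.6 to 17.3 in late high drinkers. Their median deviation from the 12-array means was 1.14, 0.49 and 0.22 on low arrays 1, 2 and 3. On water arrays 1, 2 and 3 it was -0.01, 0.08 and 0.80. The part of these markers in the differences of the low group was not tested.

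Syt5, a calcium-binding synaptotagmin, separated the late from the early high drinkers. It was at 0.41, 0.23 and 0.07 in early and at -0.10, -0.37 and -0.02 in late high drinkers, with water at 0.09, 0.22 and 0.01. Low drinkers were at -0.06, 0.19 and 0.16. All 3 late arrays were below all early and water arrays, but low array 1 lay within the late range. The late group was 0.40 below the early group (SE 0.12, unadjusted p 0.00777, adjusted p 0.320, limma), and within slide 3 it was 0.24 below early array 3. After Syt8, the most scattered synaptotagmins, named after their values were seen, were Syt10 and Syt4. Syt10 ran from -1.41 to 0.39 with an SD of 0.60 over 12 arrays, and Syt4 from 1.34 to 2.94 with an SD of 0.48, and late high drinkers held both ends of the Syt4 range. The other Syt4 probe did not share this scatter. It ran only from 1.47 to 1.69 and was at 1.62, 1.47 and 1.52 in late high drinkers.

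Of the 3 synapsins, Syn2 alone had an unadjusted p under 0.05 in late high drinkers against water. The differences on the probe of highest signal were -0.06 for Syn1, -0.29 for Syn2 and -0.32 for Syn3, of which Syn1 turned to 0.07 without scaling between arrays. Syn2 was at 4.30, 4.41 and 4.39 in water mice, 4.32, 4.33 and 4.40 in low, 4.47, 4.27 and 4.11 in early and 4.06, 4.05 and 4.14 in late high drinkers. Early array 3, on the slide of the late arrays, was among them, and the other 8 arrays were higher. The late difference from water had an SE of 0.08 and an adjusted p of 0.166 (limma). A fixed slide block reduced its size to -0.08, and within slide 3 the late arrays were 0.03 below early array 3. The other Syn2 probes were at 0.00 and 0.02 for late against water. Syn3 was at -3.80, -3.05 and -3.69 in low drinkers, -3.78, -3.42 and -4.01 in early and -4.28, -4.01 and -4.18 in late high drinkers, and high drinkers were 0.43 below low drinkers (SE 0.17, adjusted p 0.301, limma). Without low array 2 the difference was -0.20.

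Sv2a, the SV2 form found at most synapses, was highest in early high drinkers. It was at 3.69, 3.55 and 3.48 in water mice and 3.50, 3.65 and 3.71 in low drinkers. It was at 3.86, 3.87 and 3.75 in early and 3.62, 3.66 and 3.82 in late high drinkers. The early arrays were above every water and low array, and late array 3 overlapped them. The early difference from water was 0.25 (SE 0.08, unadjusted p 0.0134, adjusted p 0.890, limma), and a second Sv2a probe was 0.22 higher (unadjusted limma p 0.0390). Within slide 2 the early arrays were 0.19 above the low arrays, and with the scan day as a block the early difference from water was 0.07. The 4 Rab3 genes had no unadjusted p under 0.05 in any comparison (4.7% to 15.9% of all probes), which says little for so few genes, and Rab3a lay between 6.46 and 6.77 on all arrays.

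Early high drinkers had 3 genes with an unadjusted p under 0.05 against water (5.08%, against 4.7% of all probes), namely Syt8, Sv2a and Cplx1. All 3 were higher, as were 2.8% of all probes at this p, and the test passed after adjustment for 0% of all probes. Marker genes moved in this group too: 4 of 6 anterior pituitary markers were lower than in water mice at an unadjusted limma p under 0.05, as were 1.9% of all probes, and the summed level of 6 oligodendrocyte markers was 216 to 228 against 188 to 209.8. The median deviation of the oligodendrocyte markers from their 12-array means overlapped, at -0.03 to 0.09 against -0.07 to -0.01. The part of these markers in the early differences was not tested. Without water array 3 no gene remained under 0.05. This array was the lowest of the 12 for 12 of the 58 fully measured genes (20.7%, against 9.42% of all probes), Snap25, Stx1a, Cplx1, Sv2a and Rab3a among them. The highest array was most often late array 3, for 12 genes (20.7%, against 7.58%).

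Late high drinkers had 5 genes under 0.05 against water (8.47%, against 15.9% of all probes), with Vamp2 and Syt8 higher and Vamp5, Snap29 and Syn2 lower. Over all probes, 6.97% were higher and 8.94% lower at this p. Without scaling between arrays, 11 genes were higher and 0 lower, with 5432 of the 31622 probes under 0.05 and a median of all probes of 0.13. After adjustment 0% of the probes of the array passed, and leaving out late array 3 brought the number of the 59 genes that passed to 2, Snap29 and Rab3c, with 442 of 31564 probes passing in that fit. Marker genes of neighbouring tissue also differed in this group. Summed levels of 5 thalamus markers were 9.76 to 17.5 in late high drinkers against 7.35 to 8.55 in water mice. Those of 5 striatum markers were 3.49 to 3.83 against 4.12 to 4.47, and those of 5 choroid plexus markers 2.23 to 2.49 against 2.52 to 3.32. At an unadjusted p under 0.05, 2 of 6 oligodendrocyte markers were higher and 2 of 6 anterior pituitary markers lower, and the summed level of 5 astrocyte markers was 40.9 to 44.8 against 36.1 to 41.0. The part of these markers in the differences of the late group was not tested.

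High drinkers against low drinkers gave 8 genes under 0.05 (13.6%, against 14.7% of all probes), 7 of them lower in high drinkers and Vamp2 higher, where 11.3% of all probes were lower and 3.4% higher. After adjustment none of the 8 passed, as against 0.0221% of all probes. Markers moved in the same contrast: 5 of 6 anterior pituitary, 1 of 5 choroid plexus and 2 of 5 striatum markers were lower at an unadjusted p under 0.05, and their part was not tested. With the scan day as a block, Syt14 and Syt8 passed, as did 3088 of the 31622 probes. The lower genes were Syt8, Vamp5, Stx3, Syt6, Syn3, Snap29 and Syn2, with adjusted p up to 0.338 (limma). Late against early high drinkers gave 5 (8.47%, against 12.4%), Syt5, Vamp5, Vamp1, Syn2 and Snap29, all lower in late high drinkers, as were 8.04% of all probes. None passed after adjustment (0% of all probes), with a smallest adjusted p of 0.320 (limma). Of the summed marker levels, only that of the astrocyte markers did not overlap between these groups. It was 40.9 to 44.8 in late and 37.4 to 40.5 in early high drinkers, and its part was not tested. The test across all 4 groups gave 6 (10.2%, against 14.4%), with the smallest adjusted p 0.110 for Syt8 (limma), where 0.00632% of all probes passed. With the scan day as a block Syt8 passed in that test (adjusted p 0.0274, limma), as did 822 probes. That fit cannot separate scan day from drinking for Syt8, whose usable values on the scan day of slide 1 were all from water arrays. The low and late shares were below those of all probes, and the early and high-against-low shares were near them. When arrays were scaled to their medians instead, 9 genes were higher and 2 lower in high than in low drinkers (7 and 1 without scaling). Shares of all probes by direction were not counted under those scalings. Median scaling moved the median of all probes in this contrast from -0.05 to 0.08. Of low against water it moved that median from 0.04 to -0.10. Every difference with an unadjusted p under 0.05 among the 59 genes kept its direction with median scaling, without scaling and with quantile normalization. Up to 28 of the others in a comparison did not, and the largest of those was 0.27, in high against low drinkers with quantile normalization.

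**Figure D3:**
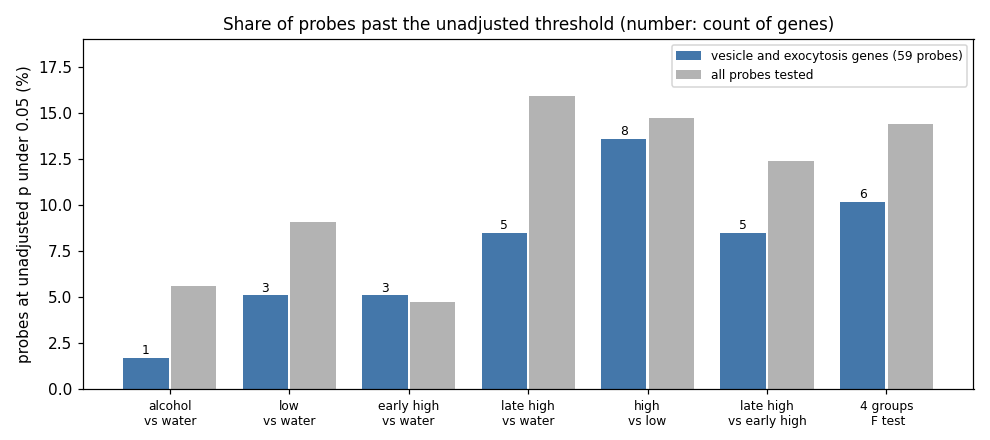
Share, in percent, of the 59 vesicle and exocytosis genes and of all 31622 probes tested with an unadjusted limma p under 0.05 in each comparison, with counts of genes above the bars. The bar of the genes is shorter than that of all probes in all comparisons but early high drinkers against water.

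The genes of the group varied less from array to array than others did. The SD over the 12 arrays had a median of 0.102 for the 59 genes and 0.141 for the highest-signal probes of all gene names. It was under 0.1 for 26 genes (44.1%, against 30.9%) and over 0.3 for 6 (10.2%, against 23.9%). These 6, on their probes of highest signal, were Syt8, Syt10, Syt4, Syt6, Syt14 and Syn3. The median size of the difference from water was 0.05 in low, 0.06 in early and 0.10 in late high drinkers, against 0.08, 0.08 and 0.12 over gene names. These are descriptions, since genes are not replicates and the brightness of the probes was not matched.

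The probes of 1 gene often gave opposite signs. Of the 39 genes with several tested probes, all probes pointed the same way for 19 genes in alcohol against water, 18 in low, 18 in early and 16 in late high drinkers against water. Of all 121 tested probes of the group, 13 had an unadjusted p under 0.05 in late high drinkers against water (10.7%, against 15.9% of all probes), 3 higher and 10 lower. In late against early high drinkers there were 14 (11.6%, against 12.4%), all lower.

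**Figure D4:**
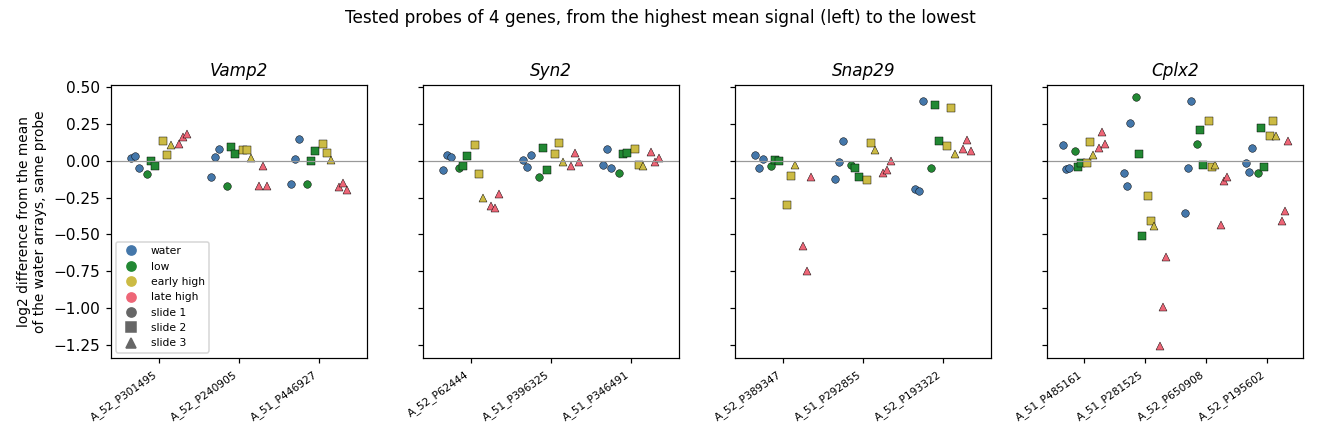
Log2 difference from the mean of the water arrays on each tested probe of Vamp2, Syn2, Snap29 and Cplx2, with the probe of highest mean signal leftmost, 1 point per array, colour for the drinking group and shape for the slide. The late high drinkers are high on the first Vamp2 probe and not on the others, low on the first probes of Syn2 and Snap29, and lowest on the Cplx2 probe whose late mean was 0.97 below water.

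Other genes of the release cycle were taken by function from lists. Of 23 priming and active zone genes, none had an unadjusted p under 0.05 for alcohol, low or early high drinkers against water, where 5.59%, 9.08% and 4.7% of all probes did. In late high drinkers 3 did (13.0%, against 15.9% of all probes), Rimbp2 and Erc1 higher and Erc2 lower. Of 8 genes of SNARE disassembly and its partners, 3 had an unadjusted p under 0.05 in early high drinkers (37.5%, against 4.7%) and 2 in late high drinkers (25%, against 15.9%). Nsf, the ATPase that takes spent SNARE complexes apart, was 0.23 higher in early and 0.22 higher in late high drinkers (adjusted p 0.890 for early, limma). Its adaptor gene Napb was 0.19 higher in early high drinkers. The SNAP25-binding protein gene Snapin was 0.21 lower in early and 0.45 lower in late high drinkers (late SE 0.08, adjusted p 0.0948, limma).

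Of 11 other vesicle membrane proteins, 3 had an unadjusted p under 0.05 in late high drinkers (27.3%, against 15.9%). The proton pump subunit Atp6v1a was 0.29 higher, and Sypl and Scamp1 were 0.29 and 0.15 lower. Late against early high drinkers also gave 3 (27.3%, against 12.4%), with Atp6v1a 0.24 higher and Syngr3 and Atp6v0a1 0.25 and 0.21 lower. Of 6 vesicular transporters tested, 1 had an unadjusted p under 0.05 in each drinking group against water (16.7%, against 9.08% in low, 4.7% in early and 15.9% in late high drinkers). The monoamine transporter Slc18a2 was 0.49 higher in low (adjusted p 0.514, limma) and 0.42 higher in early high drinkers, and its relative Slc18a1 was 0.39 lower in late high drinkers. All 6 were lower in high than in low drinkers, as were 64.9% of all probes, none with an unadjusted p under 0.05, and 4 of 6 were lower with median scaling. Of 16 endocytosis genes, 2 had an unadjusted p under 0.05 in early high drinkers (12.5%, against 4.7%), the clathrin adaptor subunit genes Ap2a1, 0.17 higher, and Ap2b1, 0.14 lower, and 3 had an unadjusted p under 0.05 in late high drinkers (18.8%, against 15.9%). Bin1 and Dnm3 were 0.28 and 0.17 higher, and Ap2b1 was 0.21 lower. No gene of these lists passed after adjustment in any comparison.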

How the data were processed

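Total RNA pools from mouse hypothalamus were labelled with Cy3 and hybridised to 12 Agilent whole-genome arrays of 1 colour. The deposited values are scanner intensities per spot, which the authors obtained with Agilent Feature Extraction (version 10.5.1.1 per the file headers, which also give mm9 probe positions). Groups came from the sample titles.

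The processed intensity was put on the log2 scale and each array's 75th percentile was subtracted. Control spots were left out, and non-uniform outlier spots, and spots under 2 times their own processed error, were set to missing. Replicate spots were averaged by probe. Testing required usable values on 2 or more of the 3 arrays of every group, which 31622 probes met. limma 3.58.1 in R 4.3.3 was fitted to all of these, once with alcohol against water and once with all 4 groups, with Benjamini-Hochberg adjustment over all probes. The code was tested on simulated data with known changes. Single results of a few of the genes, which remain in the counts, are not reported here. Figures were drawn with matplotlib 3.10.9.

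The genes, the gene lists and the rule for naming were chosen with earlier results of these data known. Named were the core release genes, the 10 genes with the lowest p across the 4 groups and the 5 with the lowest p for alcohol against water, genes past an adjusted p of 0.05, genes not tested, and genes whose probes differed in sign with an unadjusted p under 0.05. Vamp1, Syt10, Syt4, Rab3c and the extra probes were named after their values were seen, as was the level of -3. Alternatives were the background correction, scaling, filters on dim or outlier spots, the series value table of the authors, slide or scan day as a block, the replicate number as a block, the choice of probe, and each array left out. That value table held the same signals, linear and without centring, within 1% for 99.9% of probes, with column medians from 193 to 244. The number of arrays limits the precision, no spot was saturated, and 0 pairs of arrays were identical. No statement was found that pools of 1 group came from separate batches of animals, so p-values measure the spread between these pools.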

Additional observations from a re-analysis of the deposited data

Results flagged for a closer look

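Among 22 measures in which the highest or lowest array was compared with its nearest neighbour, 1 had an array far from the rest, where about 1.1 of 22, or 1 in 20, are reached by chance. Syt8 was at -3.56 on low array 2, and the next of its 8 measured alcohol arrays was at -4.84, a gap of 0.550 of the range. Low array 2 was also the highest array for 28.2% of all probes with 12 values. The part of that array's general lean in the Syt8 value was not tested.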

How the results depend on the processing

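The call of Syt8 in low drinkers against water, 1 of the 59 genes, went to 0 with normexp background correction, quantile normalization, no filter on dim probes, or slide as a random block (difference 2.81). A fixed slide block also gave 0, but could not separate slide from drinking for Syt8. It also went to 0 with the authors' value table and with the mean of all probes of a gene, where the difference was 2.78 in both and the adjusted p 0.0501 and 0.0510 (limma). With only probes well above background, Syt8 was not tested and 0 genes passed. It also depended on arrays: leaving out 1 array gave 0 to 2 genes, with 2 (Syt8 and Syt14) without low array 1, and the Syt8 call was lost without water array 1 or any array of a high drinker (adjusted p 0.0688 to 0.139, limma), with the difference unchanged at 2.78. Without water array 2 or 3, or low array 2 or 3, Syt8 had too few values for a test. With the scan day as a block, 2 genes (Syt14 and Syt8) passed in high against low drinkers and 1 (Syt8) in the test of 4 groups, in place of 0. In the test of 4 groups this block could not separate scan day from drinking for Syt8. Leaving out 1 array gave 0 to 2 genes in late high drinkers against water, in high against low drinkers and in the test of 4 groups. The cause was not tested.

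The sign turned for Stx3 in high against low drinkers (0.0664) and Vamp2 in late high drinkers against water (-0.0508) with the mean of all probes, which takes in probes of opposite sign, and for Syt14 in low drinkers against water with slide or scan day as a block (-0.12 and -0.12).

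Replicate numbers are shared by the groups, but arrays of 1 number did not deviate together: 18 pairs had correlations from -0.0893 to 0.183, 3 above 0.1, and 5 of 12 arrays correlated best with their own number. With the replicate number as a block, 0 genes passed in low drinkers against water, and no other count after adjustment moved.

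The median difference of the 59 genes followed the scaling. With median scaling it was -0.0219 for alcohol, -0.12 for low and -0.0214 for early high drinkers against water, 0.13 for high against low and 0.0412 for late against early. Without scaling it was -0.0511 for low, -0.00298 for early and 0.14 for late high drinkers against water, 0.12 for high against low and 0.12 for late against early. With the probe of lowest p for each gene it was 0.0628 for alcohol, 0.0768 for low and 0.0879 for early against water, -0.0845 for high against low and -0.16 for late against early. With the mean of all probes it was -0.0391 for high against low and -0.0836 for late against early. With quantile normalization it was 0.000471 for alcohol and -0.00447 for low drinkers against water and -0.00373 for late against early. With the scan day as a block it was -0.0176 for alcohol, -0.0176 for low, -0.0154 for early and -0.0430 for late against water, and with a fixed slide block -0.0176, -0.0176, -0.00641 and -0.0476. Leaving out 1 array gave -0.0160 to 0.0225 for late against water and -0.0520 to -0.00607 for late against early. The median range of group means, 0.145, became 0.230 with median scaling, 0.237 without scaling and 0.208 with the probe of lowest p. Higher against lower genes at an unadjusted p under 0.05 went from 2 and 3 to 11 and 0 for late against water, from 1 and 7 to 7 and 1 for high against low, and from 0 and 5 to 6 and 1 for late against early without scaling. Shares of all probes by direction were not counted without scaling.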
